A study of Arabidopsis thaliana with 44 samples.

Results

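The wild-type-silent genes of Arabidopsis thaliana that are switched on in ddm1 are nuclear genes with almost no RNA in wild-type shoot apices and a clear level in the ddm1 mutant. They were chosen from the measured values: a mean under 0.2 CPM (counts scaled to a library total of 1000000) over the 16 wild-type libraries and a mean of at least 2 CPM over the 4 ddm1 libraries, with the methylation-controlled loci AT4G25530 (FWA), AT2G17690 (SDC) and AT3G30720 (QQS) set aside. The rule found 74 genes among 29417 nuclear gene rows (0.252%), and these were then followed in 6 argonaute mutant groups. Because ddm1 and wild-type values chose the genes, the difference between ddm1 and wild type is described without a test.

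RNA was sequenced in bulk from shoot apices of Col-0 seedlings taken 7 days after germination, grown on soil under 16 h of light and 8 h of dark. Total RNA was extracted with TRIzol, and the Smart-seq3 protocol, which reads along whole cDNAs, gave the libraries. The mutant groups, with 4 libraries each, were ddm1, the single mutants ago4, ago5 and ago9, the double mutants ago4ago9 and ago5ago9 and the triple mutant ago4ago5ago9, set against wt21 and wt col-0 with 8 libraries each. The labels name the mutated genes in this way only. They give no alleles, no generation of inbreeding and no number of plants per library, and they do not say what wt21 is. Nothing states that replicates came from separate plants, so p-values measure the spread between these libraries, which may be technical.

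DDM1 is a chromatin remodelling factor that lets DNA methyltransferases reach nucleosome-bound heterochromatin. Its loss is known to lower cytosine methylation, CG methylation included, and to release transposable elements together with some genes near or derived from them. ARGONAUTE 4 (AGO4) and ARGONAUTE 9 bind small interfering RNAs and act in RNA-directed DNA methylation, a separate route that sets methylation on short elements and on the edges of long ones. ARGONAUTE 5 belongs to another clade and is best known from reproductive tissue.

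The labels were checked against RNA of targeted genes. DDM1 was at 0.151 to 0.684 CPM in ddm1 libraries, against 10.3 to 17.8 CPM in wt col-0 libraries. AGO4 was at 0 to 1.14 CPM in ago4 and 0.136 to 0.939 CPM in ago4ago9, against 19.2 to 32.8 CPM in wt col-0. Libraries labelled ago9 were unlike each other: AGO4 had 1 and 0 counts in replicates 1 and 2, but 18.4 and 22.5 CPM in replicates 3 and 4. Libraries labelled ago4ago5ago9 had 14.2 to 27.7 CPM of AGO4, so that label was not matched by loss of AGO4 RNA. AGO9 RNA was low throughout, at 0 to 0.206 CPM in ago9, 0 CPM in ago4ago9 and ago5ago9 and 0 to 0.315 CPM in ago4ago5ago9, against 0.462 to 1.57 CPM in wt col-0. AGO5, with 22 counts over the 8 wt col-0 libraries, was too low to check the ago5 labels. Library totals ran from 4474810 to 10620119 counts. A floor of 3 counts, the limit that a count of 0 allows, equalled 0.282 to 0.670 CPM in single libraries. STM, KNAT1 and ATML1, which mark the shoot apex, averaged 5.15, 9.18 and 55.9 CPM over the wild-type libraries. Of the same list, CUC2 averaged 0.425 CPM and the stem cell genes WUS and CLV3 averaged 0.00657 and 0.158 CPM. On a list of 7 root markers, PYK10, a beta-glucosidase gene of roots and hypocotyls, averaged 436 CPM, SCR 20.2 CPM and SHR 8.55 CPM. WOX5 averaged 1.26 CPM, COBL9 0.0444 CPM, and PLT1 and EXP7 0 CPM. Whether the samples held tissue other than the apex was not tested.

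The 74 genes together held 1402, 1490, 1591 and 1319 CPM in ddm1 replicates 1 to 4. Their sum had a lowest, median and highest value of 0.459, 1.95 and 2.86 CPM over the wt21 libraries and 1.09, 1.63 and 4.01 CPM over the wt col-0 libraries. The groups were far apart by construction of the rule, and the spread among ddm1 libraries was small beside the gap. In the wild types, 42 of the 74 genes had no count in any of the 16 libraries, which together held 122155184 counts. The most detected gene reached about 20.0 estimated counts over those 16 libraries. In ddm1, 74 of 74 were detected in every library and 73 had more than 3 counts in every library. In bulk samples, a gene on at a low level in many cells and a gene fully on in few cells cannot be told apart.

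**Figure D1:**
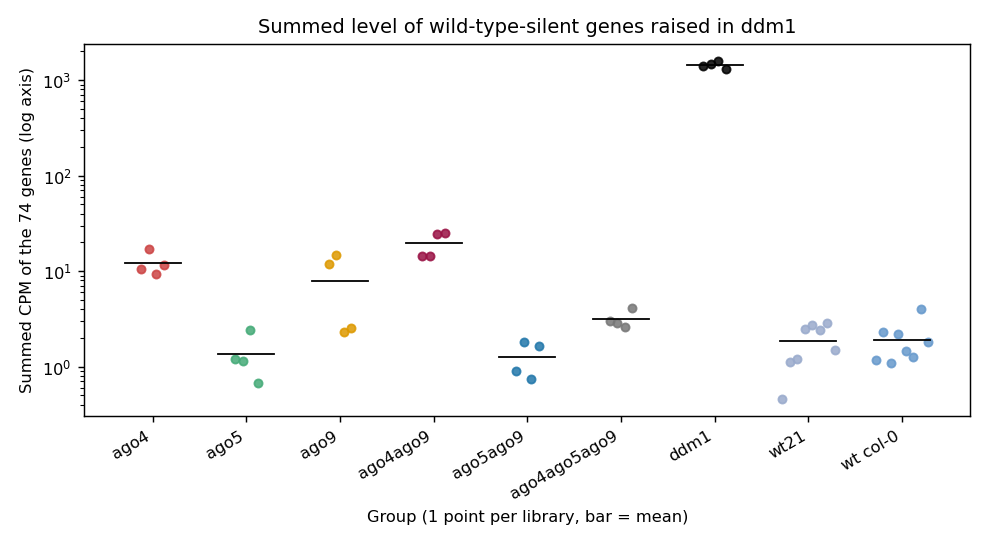
Summed CPM of the 74 genes in each library (log axis), by group, with 1 point per library and a bar at the group mean. The 4 ddm1 libraries sit between 1319 and 1591 CPM; ago4 and ago4ago9 libraries sit between 9.38 and 25.3 CPM; ago9 libraries split at 2.28 to 2.51 and 11.8 to 14.9 CPM; the 16 wild-type libraries sit between 0.459 and 4.01 CPM.

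Levels in ddm1 were uneven. The mean CPM of a gene over the ddm1 libraries ran from 2.03 to 208, with a median of 6.54. A total of 22 genes reached 10 CPM and 4 reached 100 CPM, while 32 stayed under 5 CPM. The 4 most abundant genes held 48.6% of the summed level and the 10 most abundant held 70.5%.

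The most abundant was AT3G01345, annotated as an expressed protein of unknown function, at 240.4, 228, 193 and 172 CPM in ddm1 replicates 1 to 4. AT2G05914, a long noncoding RNA, followed at 181, 231, 175 and 177 CPM. AT2G15555, an RNA gene with no assigned function, had 158, 138, 223 and 139 CPM. All 4 ddm1 libraries were high for each of these, while AT3G01345 did not pass 0.664 CPM in a wild-type library, AT2G05914 did not pass 0.456 CPM and AT2G15555 had no count in any wild-type library. AT2G34655, an uncharacterized protein gene, had 135, 139, 177 and 117 CPM in ddm1. The next were AT5G34869 with a mean of 93.4 CPM, AT5G41660 with 73.0 CPM, the beta-galactosidase-related pseudogene AT5G33251 with 58.2 CPM and AT2G19850, a predicted transcription repressor, with 36.1 CPM. AT1G59930, a MADS-box gene, had 33.6 CPM and the uncharacterized AT4G08691 had 23.1 CPM. AT5G34869 and AT5G41660 had no count in any of the 16 wild-type libraries.

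Promoter sequences, the 250 bases upstream of the annotated gene start, are shown for 2 of these genes because both are abundant in ddm1 and at or near 0 in the argonaute mutants. They come from RefSeq, assembly TAIR10.1, and run 5′ to 3′ toward the gene. CG dinucleotides, the sites whose methylation DDM1 helps to keep, are in capitals.
AT3G01345 (chr3:128888-129137, plus strand): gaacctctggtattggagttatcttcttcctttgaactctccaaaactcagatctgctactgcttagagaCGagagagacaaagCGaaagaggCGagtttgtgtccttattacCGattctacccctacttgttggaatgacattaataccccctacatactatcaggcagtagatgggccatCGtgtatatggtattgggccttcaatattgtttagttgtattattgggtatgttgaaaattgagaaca
AT5G41660 (chr5:16656458-16656707, plus strand): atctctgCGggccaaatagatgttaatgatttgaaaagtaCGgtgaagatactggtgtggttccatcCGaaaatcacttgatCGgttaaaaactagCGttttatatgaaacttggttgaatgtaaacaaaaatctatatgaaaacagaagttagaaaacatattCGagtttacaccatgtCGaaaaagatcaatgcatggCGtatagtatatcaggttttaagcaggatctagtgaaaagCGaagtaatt
The AT3G01345 promoter held 5 CG dinucleotides and no TATAAA motif, and that of AT5G41660 held 9 CG dinucleotides and a TATAAA motif on the opposite strand, which reads tttata in the letters shown. TATAAA was searched on both strands here and below. At least as many CG dinucleotides were present in 51.5% and 16.8% of all 28929 nuclear promoters of the same length.

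Replicate agreement in ddm1 differed between genes. The coefficient of variation over the 4 ddm1 libraries had a median of 0.282 and ran from 0.0641 to 1.02, against a median of 0.137 from counting error alone. AT4G29200 (0.0641), AT3G43833 (0.0900) and AT4G07526 (0.0913) varied least. AT1G77960 (1.02), AT1G36675 (0.620) and AT2G01422 (0.607) varied most. AT2G01422, an RNA gene of unknown function, had 7.25, 8.99, 27.9 and 19.7 CPM in ddm1 replicates 1 to 4, so replicates 1 and 2 were low and 3 and 4 high. In 5 of the 74 genes the highest ddm1 library was at least 4 times the lowest.

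The thresholds cut through a continuum on the ddm1 side. Just inside the ddm1 limit were AT1G54420 (2.03 CPM), AT5G29040 (2.13 CPM) and AT1G77960 (2.29 CPM), and just outside were AT2G06420 (1.98 CPM), AT5G32590 (1.95 CPM) and AT2G13410 (1.94 CPM). Just inside the wild-type limit were AT2G16018 (mean of 0.169 CPM in wild type), AT1G41890 (0.155 CPM) and AT5G35480 (0.121 CPM), and just outside were AT3G26480 (0.244 CPM), AT5G38005 (0.303 CPM) and PCC1 (0.315 CPM). Of the other 10869 nuclear genes under the wild-type limit, 73.1% had no count in ddm1 and 39 had a ddm1 mean between 1 and 2 CPM.

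**Figure D2:**
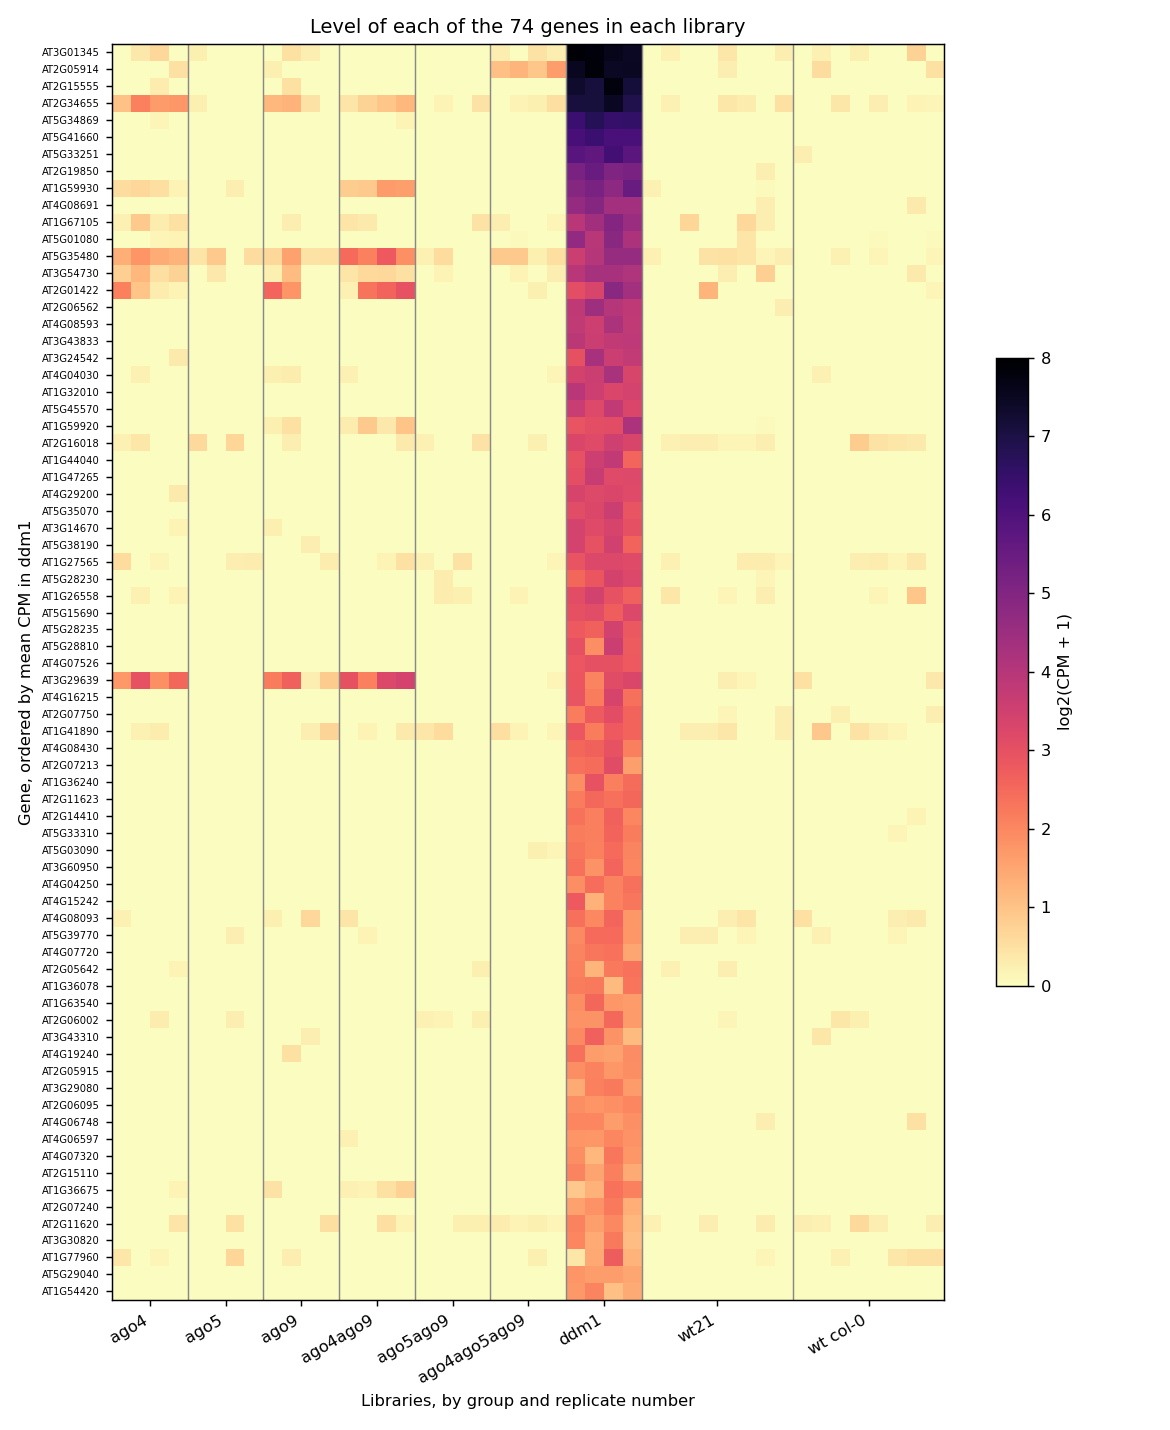
Level of each of the 74 genes (rows, ordered by mean CPM in ddm1) in each of the 44 libraries (columns, by group and replicate number), as log2(CPM + 1). The ddm1 block is filled for all 74 genes; outside it, a few rows such as AT3G29639, AT5G35480, AT2G01422 and AT2G34655 are coloured in ago4, ago9 and ago4ago9 libraries.

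The kinds of genes are read from RefSeq annotation, and the families below were grouped from that text after the values were seen. Of the 74 genes, 50 were protein-coding (67.6%, against 82.7% of the other wild-type-silent genes). A further 15 were transcribed pseudogenes (20.3%, against 7.79%) and 9 were noncoding RNA genes, 7 of class ncRNA and 2 of class lncRNA. For 22 of the 74 the product is given as an uncharacterized protein.

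Ulp1 protease genes were frequent. Ulp1 is a protease domain that cleaves the small modifier SUMO and is also carried by some plant DNA transposons. Of 9 nuclear genes so annotated, as Ulp1 protease or as cysteine-type peptidase, 9 were silent in wild type and 5 were among the 74: AT5G45570, AT5G28235, AT5G28810, AT4G08430 and AT2G07240. Their ddm1 means ran from 2.42 to 10.3 CPM, and all 5 had no count in any of the 16 wild-type or 24 argonaute libraries. The highest, AT5G45570, had 11.5, 8.11, 12.7 and 8.79 CPM in ddm1 replicates 1 to 4. Its promoter held 22 CG dinucleotides, more than any other of the 74.

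Genes and pseudogenes annotated as myosin heavy chain-like made up 9 of the 74, of 48 nuclear rows so named. Their ddm1 means ran from 2.13 to 10.8 CPM, with AT1G32010 and AT5G38190 the most abundant, and together the 9 had 3 counts in the 24 argonaute libraries. AT1G32010 and AT5G38190 lie on different chromosomes, yet their promoters were 95.6% identical over 251 aligned positions. AT2G14410 and AT4G06597 of the same family shared 81.3%.

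Beta-galactosidase-related genes gave 4 of the 74 of 22 rows, with ddm1 means of 8.61 to 58.2 CPM: AT5G33251, AT5G01080, AT3G24542 and AT4G29200. The OVATE family of transcription repressors, which are known to restrain cell elongation and organ shape, gave 3 of 19 rows: AT2G19850 (36.1 CPM in ddm1), AT3G54730 (16.9 CPM) and OFP9, AT4G04030 (12.0 CPM). By sequence, AT3G54730 was near-identical to AT2G19850, and OFP9 to AT3G54730. All 3 had fractional estimated counts in ddm1 (225.525, 94.271 and 64.203 in replicate 1), so their separate levels are uncertain. Retrotransposon or reverse transcriptase annotation covered 91 nuclear rows, of which 84 were silent in wild type and 2, AT1G44040 and AT3G30820, were among the 74. That is 2.20% of the rows so annotated, against 0.252% of all nuclear rows. The same share was 55.6% for Ulp1 protease, 18.8% for myosin heavy chain-like, 18.2% for beta-galactosidase-related and 15.8% for OVATE family rows.

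The MADS-box family of DNA-binding transcription factors gave 2 of 43 rows (4.65%), AT1G59920 and AT1G59930. They are neighbours on the minus strand of chromosome 1, with 1081 bases between them, and RefSeq describes AT1G59930 as a maternally expressed imprinted gene. AT1G59930 had 29.6, 34.4, 26.4 and 44.1 CPM in ddm1 replicates 1 to 4, and AT1G59920 had 6.63, 7.23, 7.36 and 16.9 CPM. Both were high in every ddm1 library and highest in replicate 4, against at most 0.152 and 0.0525 CPM in any wild-type library. Their promoters are shown because the same stretch stands before both genes.
AT1G59920 (chr1:22059843-22060092, minus strand): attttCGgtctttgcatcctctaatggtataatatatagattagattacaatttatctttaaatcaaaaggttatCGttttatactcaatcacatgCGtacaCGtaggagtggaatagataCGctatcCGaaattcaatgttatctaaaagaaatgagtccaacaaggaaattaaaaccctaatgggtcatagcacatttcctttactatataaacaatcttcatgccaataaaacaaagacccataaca
AT1G59930 (chr1:22061517-22061766, minus strand): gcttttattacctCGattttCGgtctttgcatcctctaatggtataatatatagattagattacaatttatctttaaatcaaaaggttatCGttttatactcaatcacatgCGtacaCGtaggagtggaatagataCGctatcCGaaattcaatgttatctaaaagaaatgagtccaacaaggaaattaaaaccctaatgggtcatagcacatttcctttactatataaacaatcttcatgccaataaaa
A run of 235 bases was identical in the 2 promoters, shifted by 15 bases, and the aligned windows were 88.7% identical. Capitals again mark CG dinucleotides, 6 in AT1G59920 and 7 in AT1G59930, and both promoters held TATAAA on each strand. The 2 genes are near-identical copies, and in all 4 ddm1 libraries the fractional parts of their estimated counts added to whole numbers (tolerance 0.0025), as when reads are divided between 2 features. Their separate levels are therefore uncertain, while their sum is not affected by such a division.

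The surroundings of the 74 genes were sparse in genes; this and the repeat content below are described without a test. A window of 100000 bases on either side held a median of 24 protein-coding gene starts (quartiles 13 and 47), against 52 (44 and 57) for 10451 other wild-type-silent genes and 53 (47 and 58) for all 28929 nuclear genes with an annotation. A total of 53 of the 74 (71.6%) lay below the lowest quartile of all nuclear genes. AT4G08093 had 1 gene start in its window, the fewest, and AT3G01345 had 69, the most. Among the 10 most abundant genes AT5G34869 had 6 and AT5G33251 had 7. Chromosomes 1 to 5 held 15, 18, 10, 15 and 16 of them.

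**Figure D3:**
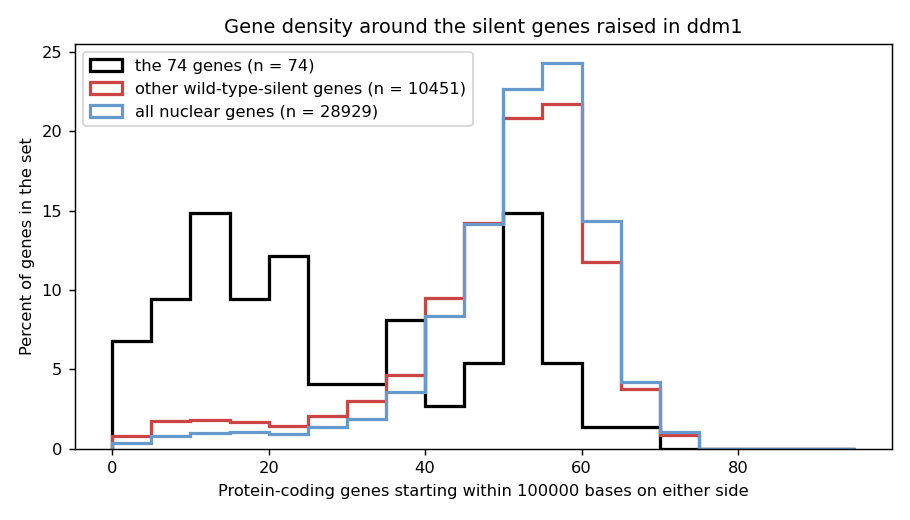
Number of protein-coding genes that start within 100000 bases on either side of a gene (x axis), as the percent of genes in each set (y axis, 5 genes per step). The 74 genes have a median of 24 and pile up at the low end, while other wild-type-silent genes and all nuclear genes have medians of 52 and 53.

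The 74 genes had more repeated sequence than other silent genes. A genomic match of at least 100 bases at 95% identity outside the gene itself was found for 26 of 74 (35.1%), against 10.4% of the other wild-type-silent genes. A near-identical annotated gene existed for 11 of 74 (14.9%), against 10.5%. Fractional estimated counts occurred in some ddm1 library for 30 of the 74. A single feature whose fractions completed them was found for 10, and in 4 of these it was a transposable element: AT2TE10945 for AT2G06095, AT2TE13105 for AT2G07240, AT4TE09735 for AT4G04250 and AT4TE17660 for AT4G06748. For 6 it was a gene. Among these, AT2G11620 (2.39 CPM in ddm1) had AT2G41310 (21.9 CPM), and AT5G15690 (7.15 CPM) had AT4G04775 (0.877 CPM). Division of reads among more features was not searched for. The levels of these genes depend on how reads were divided, which is not given in the sources used here.

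Only 5 pairs of the 74 were neighbours, AT1G59920 with AT1G59930 and AT2G05914 with AT2G05915 among them. AT2G05914 and AT2G05915 overlap by 450 bases on opposite strands, with means of 190.9 and 2.73 CPM in ddm1. In all 4 ddm1 libraries the fractional parts of their estimated counts added to whole numbers (tolerance 0.0025), as when reads are divided between 2 features. The use of strand in counting is not given, so their separate levels are uncertain. Other genes next to the 74 were also examined: of 137 such neighbours 54 were tested, and 5 (9.26%) were higher and 4 (7.41%) lower in ddm1 than in wt col-0 replicates 1 to 4 by edgeR's quasi-likelihood test at an adjusted p under 0.05. Among 16100 other nuclear genes, 6.33% were higher and 7.02% lower, and 17.7% of all features were called in that comparison. The share among neighbours was thus near the background.

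Promoters of the 74 held a median of 6 CG dinucleotides (range 0 to 22), against 4 in other wild-type-silent genes and 5 in all nuclear genes. TATAAA was found on either strand in 28 of 74 (37.8%), against 51.3% and 47.6%.

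In the argonaute mutants most of the 74 genes stayed at or near 0. No count was seen for 40 of the 74 in any of the 24 argonaute libraries, which together held 155967405 counts, so that a level above 0.0192 CPM over all of them is beyond what 0 counts allow. Of these 40, 32 also had no count in the 16 wild-type libraries. The summed level was 10.5, 17.1, 9.38 and 11.7 CPM in ago4 replicates 1 to 4, and 14.4, 14.4, 24.4 and 25.3 CPM in ago4ago9 replicates 1 to 4. It was 11.8, 14.9, 2.28 and 2.51 CPM in the libraries labelled ago9. Every ago4 and ago4ago9 library was above the highest wild-type library (4.01 CPM). So were ago9 replicates 1 and 2, the libraries with 1 and 0 AGO4 counts, but not ago9 replicates 3 and 4. The rule had chosen the genes for low wild-type values, so a low wild-type sum was fixed in advance. Nothing is read from that gap. Libraries of ago5 and ago5ago9, which the rule did not use, reached at most 2.42 and 1.79 CPM.

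The ago5 and ago5ago9 groups stayed within the wild-type range, while ago4ago5ago9 lay in its upper part or just above it. The summed level was 1.19, 1.15, 2.42 and 0.670 CPM in ago5, and 0.900, 1.79, 0.740 and 1.63 CPM in ago5ago9. It was 3.01, 2.84, 2.59 and 4.09 CPM in ago4ago5ago9, where 1 library lay just above the highest wild-type library. That wild-type library was wt col-0 replicate 7 (4.01 CPM). The other wt col-0 libraries reached at most 2.28 CPM and the wt21 libraries at most 2.86 CPM. The mean was 3.13 CPM in ago4ago5ago9, against 1.85 CPM in wt21 and 1.91 CPM in wt col-0. As a share of the ddm1 mean, the group means came to 1.35% in ago4ago9, 0.839% in ago4, 0.542% in ago9, 0.216% in ago4ago5ago9, 0.0936% in ago5 and 0.0873% in ago5ago9, against 0.127% in wt21 and 0.132% in wt col-0. The lowest ddm1 library was 52.1 times the highest argonaute library.

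Most of the summed level in ago4, ago4ago9 and ago9 came from 6 genes: AT3G29639, AT5G35480, AT2G01422, AT2G34655, AT1G59930 and AT3G54730. These are the genes that passed the test in any of 10 comparisons among argonaute and wild-type groups, so their high share is partly a result of that choice. AT3G54730 passed only in ago4 against wt col-0, where the rule had fixed a low control, and there in 7 of 14 alternative fits. It was not called in ago4 against ago5 (edgeR adjusted p = 0.373) or in ago4ago9 against ago5ago9 (edgeR adjusted p = 0.180). They held 85.1% of the summed level in ago4, 91.1% in ago4ago9 and 79.9% in ago9, but 16.1% in ddm1. The other 68 summed to 1.24 to 2.28 CPM in ago4 and 1.23 to 2.81 CPM in ago4ago9, against 0.155 to 1.97 CPM in wt21 and 0.628 to 3.61 CPM in wt col-0, so those groups overlapped.

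**Figure D4:**
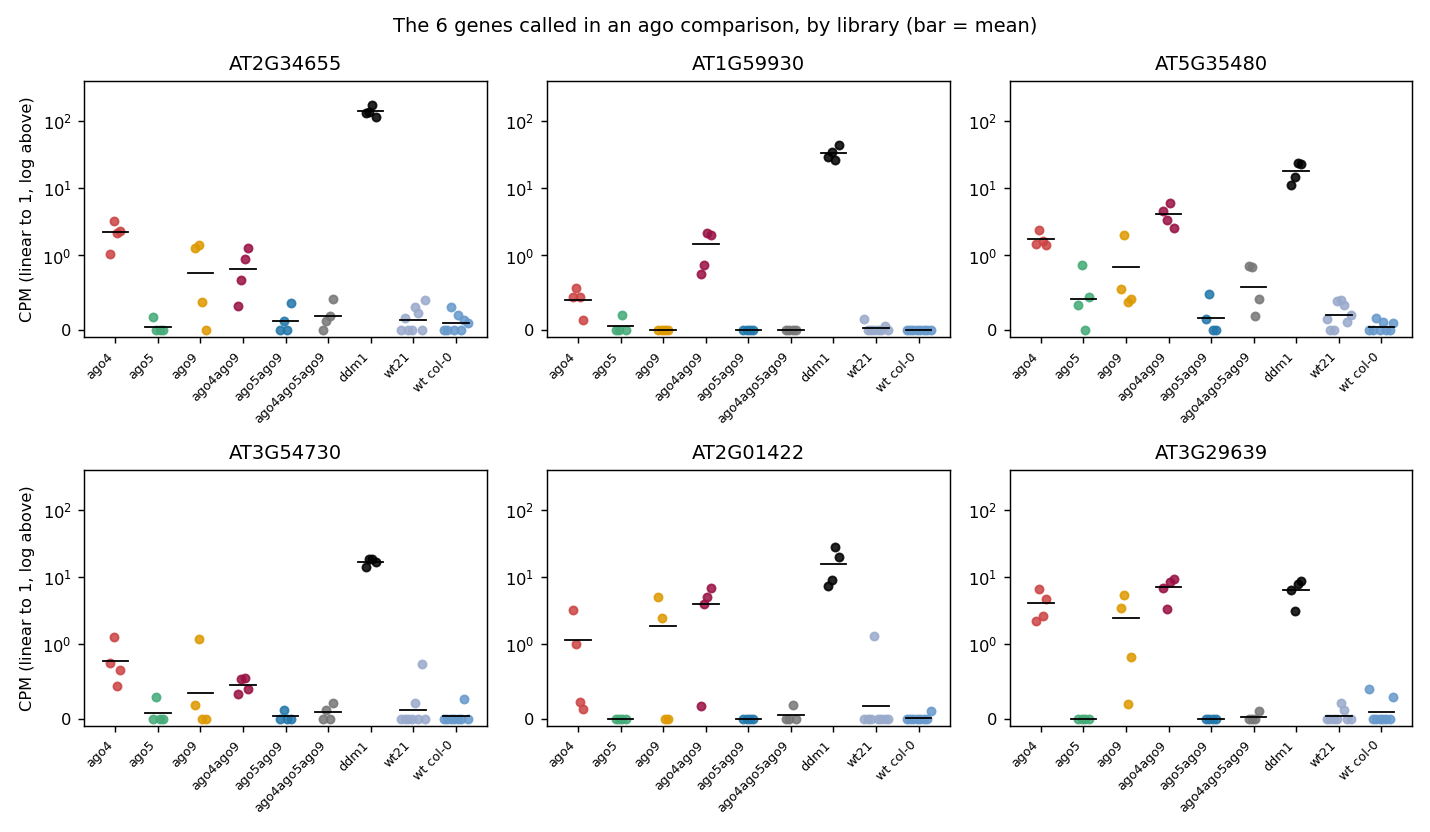
CPM of the 6 genes that passed the test in an argonaute comparison, by library (y axis linear to 1 and log above), with groups along the x axis and a bar at each group mean. AT3G29639 reaches 9.40 CPM in ago4ago9 and 8.85 CPM in ddm1, whereas AT2G34655 stays at or under 3.28 CPM in argonaute groups with 117 to 177 CPM in ddm1.

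Counts were compared with edgeR's quasi-likelihood test over 17254 features, with adjustment over all of them. Of the 74 genes, 63 passed the filter on low counts, and all but 3 of these (AT2G01422, AT3G29639 and AT5G35480) passed only because ddm1 libraries were in the fit. The 11 that did not pass were AT1G36078, AT1G36675, AT1G54420, AT1G77960, AT2G05642, AT2G07240, AT2G11620, AT3G30820, AT3G43310, AT4G07320 and AT4G15242. The control was wt col-0 replicates 1 to 4. The rule had chosen the genes for low wild-type values, so a low control is fixed in advance in each comparison with wt col-0. Those comparisons are therefore given as levels, with the number of calls but no p or fold change. Nothing is read from the calls or from groups that did not overlap. The share of all features without overlap was not computed. They also share the same 4 control libraries.

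In ago4, 4 of the 63 genes passed edgeR's threshold against wt col-0, all higher in ago4, and 0 did under DESeq2, which gave 2 of the 63 an adjusted p (edgeR called 0.226% of all features, with 0.180% higher). AT3G29639, whose best protein match per RefSeq is a SPOC domain and transcription elongation factor protein, had 2.23, 6.69, 2.62 and 4.79 CPM in ago4 replicates 1 to 4, against 0.393, 0, 0 and 0 CPM in wt col-0 replicates 1 to 4. Every ago4 library was above every control library, where the rule had fixed a low level.

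AT5G35480, an uncharacterized protein gene, had 1.49, 2.42, 1.64 and 1.42 CPM in ago4, against 0, 0, 0.154 and 0 CPM in wt col-0. AT2G34655 had 1.04, 3.28, 2.18 and 2.33 CPM in ago4, against 0, 0, 0.308 and 0 CPM in wt col-0. For both genes the groups did not overlap, with the control fixed as low by the rule. AT3G54730, the OVATE family member, had 0.744, 1.28, 0.436 and 0.647 CPM in ago4 and no count in wt col-0 replicates 1 to 4. It had up to 0.735 CPM in a wt21 library, so ago4 and wt21 overlapped.

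In ago4ago9, 3 of the 63 genes passed the threshold against wt col-0 under edgeR and 3 under DESeq2 (edgeR called 0.203% of all features, with 0.174% higher). AT5G35480 had 4.57, 3.35, 6.003 and 2.61 CPM in ago4ago9, against 0, 0, 0.154 and 0 CPM in wt col-0. AT3G29639 had 6.85, 3.35, 8.46 and 9.40 CPM in ago4ago9, against 0.393, 0, 0 and 0 CPM in wt col-0. The MADS-box gene AT1G59930 had 0.757, 0.872, 2.19 and 2.02 CPM in ago4ago9 and no count in the control libraries. Its ago4ago9 counts were fractional, so its level apart from AT1G59920 is uncertain. The groups did not overlap for any of these 3 genes, again with the control fixed as low by the rule.

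AT2G01422 was the most uneven of the 6. It had 3.27, 0.997, 0.218 and 0.129 CPM in ago4, 4.97, 2.41, 0 and 0 CPM in ago9 and 0.163, 4.02, 5.05 and 6.79 CPM in ago4ago9, against no count in wt col-0 replicates 1 to 4. Each of these groups held a library over 3 CPM beside 1 or more at or near 0. A wt21 library, replicate 4, had 1.34 CPM of it.

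Comparisons between argonaute mutants set libraries against each other that the rule did not use. The ddm1 and wild-type libraries were still in that fit, where they bear on the filter and on the estimate of spread. All but 3 of the 63 genes passed the filter only through ddm1, where the rule chose them as high. Calls out of 63 are therefore not a like measure to the share of all features. The comparisons were therefore repeated on the 24 argonaute libraries alone, a choice made after seeing the data. Between ago4 and ago5, 2 of the 63 genes were called (0.133% of all features, with 0.0927% higher), both higher in ago4. AT2G34655 had 1.04, 3.28, 2.18 and 2.33 CPM in ago4, against 0.170, 0, 0 and 0 CPM in ago5 (ratio of counts per depth 49.4, 95% counting interval 8.57 to 1979, edgeR adjusted p = 0.000316). AT3G29639, at 2.23 to 6.69 CPM in ago4, had no count in ago5, at least 29.8-fold higher in ago4 against a floor of 3 counts over the ago5 group (edgeR adjusted p = 0.00148). Groups did not overlap for either gene, and DESeq2, which gave 38 of the 63 an adjusted p, called 2 genes as well. On the 24 argonaute libraries alone with no filter, both calls held (edgeR adjusted p = 0.00280 for AT2G34655 and 6.91e-06 for AT3G29639). With the filter, AT2G34655 was not tested there and AT3G29639 was called (edgeR adjusted p = 0.00473). AT5G35480, with 53 counts in ago4 and 10 in ago5, differed by 2.03 ± 0.58 on the log2 scale (SE) and was not called (edgeR adjusted p = 0.373).

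Between ago4ago9 and ago5ago9, 4 of the 63 genes were called (0.701% of all features, with 0.469% higher), all higher in ago4ago9, and DESeq2 called 4. AT5G35480 had 4.57, 3.35, 6.003 and 2.61 CPM in ago4ago9, against 0.150, 0.478, 0 and 0 CPM in ago5ago9, a log2 difference of 4.38 ± 0.60 (SE; edgeR adjusted p = 2.46e-05). The other 3 had no count in any ago5ago9 library. Against the same floor, AT3G29639 was at least 61.2-fold higher in ago4ago9 (edgeR adjusted p = 4.71e-05) and AT1G59930 at least 12.8-fold higher (edgeR adjusted p = 0.000328). The AT1G59930 counts in ago4ago9 were fractional (4.641, 6.5, 16.025 and 15.494 in replicates 1 to 4), so its level apart from its copy AT1G59920 is uncertain. AT2G01422 was at least 36.5-fold higher (edgeR adjusted p = 0.0355). On the 24 argonaute libraries alone with no filter, the 4 calls held (edgeR adjusted p = 9.07e-06 for AT5G35480, 2.61e-08 for AT3G29639, 0.00344 for AT1G59930 and 0.000685 for AT2G01422). With the filter, AT1G59930 was not tested there and the other 3 were called. In the fit of all groups the call of AT2G01422 was lost without any 1 of the 4 ago5ago9 libraries (adjusted p of 0.0560 to 0.171) and without ago4ago9 replicate 2 (0.0652), 3 (0.0868) or 4 (0.119).

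Between ago4ago9 and ago4, none of the 63 genes was called by edgeR or DESeq2 (0 each, with 6 at an unadjusted p under 0.05 in edgeR; 0.0753% of all features were called, 0.0580% higher). AT1G59930 had 42 counts in ago4ago9 and 12 in ago4, a log2 difference of 1.81 ± 0.48 (SE; edgeR adjusted p = 0.549), and AT5G35480 had 117 and 53 counts, a difference of 1.21 ± 0.41 (edgeR adjusted p = 1). Libraries of the 2 groups did not overlap for these 2 genes. Neither was called, and the share of all features without overlap was not computed. The AT1G59930 counts in ago4ago9 also depend on how reads were divided with AT1G59920. AT2G34655 pointed the other way, with 24 counts in ago4ago9 and 68 in ago4, a log2 difference of -1.42 ± 0.43 (edgeR adjusted p = 0.765), and its libraries overlapped. Between ago5ago9 and ago5, 0 genes were called by edgeR or DESeq2, with 1 at an unadjusted p under 0.05 in edgeR (0.122% of all features called, 0.0869% higher). DESeq2 gave 25 of the 63 an adjusted p there.

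The 6 genes reached very different parts of their ddm1 level. AT3G29639 had a mean of 7.02 ± 2.66 CPM in ago4ago9 (SD, n = 4), 4.08 ± 2.07 CPM in ago4 and 6.54 CPM in ddm1, where its libraries had 6.35, 3.13, 7.83 and 8.85 CPM. It thus stood at 107% of its ddm1 level in ago4ago9 and at 62.5% in ago4, and the libraries of these groups overlapped with those of ddm1. AT2G01422 stood at 25.1% in ago4ago9 and 7.23% in ago4, and AT5G35480 at 22.6% and 9.52%. AT3G54730 and AT1G59930 did not pass 4.59%. AT2G34655, the fourth most abundant gene in ddm1, stood at 1.56% in ago4 and 0.575% in ago4ago9. By mean level, AT3G29639 ranked 38 of 74 in ddm1 and 1 of 74 over the argonaute libraries.

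The promoters of AT3G29639 and AT5G35480 are shown because these genes had the highest mean levels over the 24 argonaute libraries, 2.27 and 1.31 CPM.
AT3G29639 (chr3:11480034-11480283, minus strand): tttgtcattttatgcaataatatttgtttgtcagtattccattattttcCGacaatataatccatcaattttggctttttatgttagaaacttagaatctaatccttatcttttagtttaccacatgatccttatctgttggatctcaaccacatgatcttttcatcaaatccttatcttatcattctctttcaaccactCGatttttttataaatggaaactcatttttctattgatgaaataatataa
AT5G35480 (chr5:13689597-13689846, minus strand): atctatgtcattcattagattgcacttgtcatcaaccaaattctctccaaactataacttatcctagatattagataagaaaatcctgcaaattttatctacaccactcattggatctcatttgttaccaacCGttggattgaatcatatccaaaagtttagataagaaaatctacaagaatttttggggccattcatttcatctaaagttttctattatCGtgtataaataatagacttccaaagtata
Each held 2 CG dinucleotides, in capitals, and at least as many were found in 88.1% of all nuclear promoters. AT3G29639 held TATAAA on both strands and AT5G35480 on the strand shown. The AT3G29639 gene lies at positions 11478633 to 11480033 of chromosome 3 (TAIR10.1), in a window with 14 protein-coding gene starts, and AT5G35480 at 13687847 to 13689596 of chromosome 5, with 25.

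In the libraries labelled ago9, none of the 63 genes passed the threshold against wt col-0 (0 by edgeR, 5 at an unadjusted p under 0.05; 0.0116% of all features were called, each of them higher, and DESeq2 gave none of the 63 an adjusted p). AT3G29639 had 3.50, 5.43, 0.190 and 0.826 CPM in ago9 replicates 1 to 4, against 0.393, 0, 0 and 0 CPM in wt col-0. AT5G35480 had 0.552, 2.01, 0.380 and 0.413 CPM in ago9, and AT2G34655 had 1.29, 1.41, 0.380 and 0 CPM. Values were highest in replicate 2 for all 3 of these genes, and replicates 1 and 2, with 1 and 0 AGO4 counts, were above replicates 3 and 4. Without replicates 1 and 2, a choice made after seeing the data, the mean summed level of the 74 genes was 2.40 CPM, against 7.86 ± 6.44 CPM over all 4 libraries (SD).

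In the libraries labelled ago4ago5ago9, 0 of the 63 genes were called by edgeR against wt col-0, with 3 at an unadjusted p under 0.05 and 1 called by DESeq2 (0.0116% of all features called by edgeR, 0.00580% higher). DESeq2 gave 9 of the 63 an adjusted p there. The gene DESeq2 called was the long noncoding RNA AT2G05914, the second most abundant of the 74 in ddm1. It had 1.07, 1.33, 0.924 and 2.10 CPM in ago4ago5ago9, against 0, 0.456, 0 and 0 CPM in wt col-0 replicates 1 to 4. These groups did not overlap, though the rule had fixed the control as low. Among the other 20 argonaute libraries it was seen in 2, at 0.388 CPM in ago4 replicate 4 and 0.184 CPM in ago9 replicate 1.

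In ago5 and ago5ago9, 0 genes were called against wt col-0 by edgeR or DESeq2, with 2 and 0 at an unadjusted p under 0.05 in edgeR (in ago5 0.0174% of all features called and 0.00580% higher, in ago5ago9 0.0348% called and 0.0290% higher). In ago5, AT5G35480 had 0.340, 0.865, 0 and 0.447 CPM. With 10 counts of it in ago5 and 1 in wt col-0, 3 of the 4 ago5 libraries lay above the controls and 1 overlapped them.

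Marker lists of other tissues were read beside these results. Of 18 pollen and sperm genes, 13 seed storage and embryo genes and 11 genes imprinted in endosperm, none was among the 74 (0). The lists are not complete: AT1G59930, which RefSeq describes as a maternally expressed imprinted gene, was among the 74 but not listed. Their summed levels were 1.79 to 3.22, 0 to 1.07 and 0.188 to 0.907 CPM in ddm1 libraries, against 1.22 to 3.03, 0 to 0.208 and 0 to 0.203 CPM in wt col-0 libraries. Of the 18, 13 and 11 genes, 12, 9 and 8 had no count in any ddm1 library. Root markers summed to 163 to 283 CPM in ddm1, against 242 to 968 CPM in all 8 wt col-0 libraries. In the test, which used wt col-0 replicates 1 to 4 only, PYK10 was lower in ddm1 (log2 difference -0.56 ± 0.18, edgeR adjusted p = 0.0287) and WOX5 higher (1.41 ± 0.48, edgeR adjusted p = 0.0378). The shoot apex list summed to 63.7 to 83.3 CPM in ddm1, against 68.8 to 92.7 CPM in all 8 wt col-0 libraries. Against wt col-0 replicates 1 to 4 alone, ATML1 was lower in ddm1 (-0.41 ± 0.13, edgeR adjusted p = 0.0284). Mean ATML1 was 55.6 CPM in ddm1, against 61.5 CPM over all wt col-0 and 50.3 CPM over all wt21 libraries. The part of tissue composition in the levels of the 74 genes was not tested.

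Genes of DNA methylation and silencing were examined as a list of 21, of which 20 were tested. In ddm1 against wt col-0, where 17.7% of all features were called and 11.1% were higher, 2 rose, the histone deacetylase HDA6 (0.61 ± 0.18 on the log2 scale, SE, edgeR adjusted p = 0.0175) and the methylcytosine-binding VIM1 (0.42 ± 0.13, edgeR adjusted p = 0.0209), and 4 fell: DDM1 itself, the DNA demethylase ROS1 (-2.02 ± 0.44 on the log2 scale, edgeR adjusted p = 0.000625), the chromomethylase CMT2 (-0.99 ± 0.21, edgeR adjusted p = 0.000605) and NRPE1, the largest subunit of RNA polymerase V (-0.85 ± 0.21, edgeR adjusted p = 0.00345). In ago4 and in ago4ago9, 0 rose and 2 fell, AGO4 and ROS1, and the same 2 fell in ago4 against ago5 and in ago4ago9 against ago5ago9. ROS1 was lower by a log2 difference of -5.79 ± 0.68 in ago4 (edgeR adjusted p = 6.79e-06) and -2.45 ± 0.47 in ago4ago9 (edgeR adjusted p = 0.00607). None of the 20 was called against wt col-0 in ago5, ago9, ago5ago9 or ago4ago5ago9 (0 in each).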

How the data were processed

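Bulk RNA was measured in 44 libraries of 9 groups taken from the labels. The deposited table gives the authors' estimated counts per feature, unscaled, 1 column per library. The build TAIR10 and the tool DESeq2 are named, per the submitters' processing notes. The aligner, counter, annotation, use of strand and handling of molecular identifiers are not given in the sources used here. Of non-zero deposited values, 5.16% were not whole (tolerance 0.01), and values were rounded before testing. The 2 reporter rows (152 counts) were left out. CPM is the count over the column total times 1000000. Intervals and floors cover counting error only.

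Members and lists were chosen with earlier results of these data known. Named genes are those called in an argonaute comparison, the 10 most abundant in ddm1, 3 genes on each side of each limit, the 3 highest and 3 lowest coefficients of variation, the 5 highest over the argonaute libraries, and examples of neighbours. AT2G05914 in ago4ago5ago9, members of families, the 11 genes not tested, and the largest and smallest windows were named after their values were seen. edgeR 4.0.16 (R 4.3.3, limma 3.58.1) fitted replicates 1 to 4 of all 9 groups (36 libraries) with 1 mean per group, TMM factors of 0.886 to 1.30, filterByExpr and a common biological coefficient of variation of 0.195, because mutants have replicates 1 to 4 only. A feature with a Benjamini-Hochberg adjusted p under 0.05 was called. The SE is the size of the log2 difference over the root of its F. Ratios of counts have exact 95% intervals. Where a group had no count, the fold is a bound against 3 counts over that group. The median log2 difference of all features was 0 in each argonaute comparison. DESeq2 1.42.0, other scalings, filters, controls and left-out replicates were alternatives, and a fit of the 24 argonaute libraries alone was added after seeing the data. Code was tested on simulated data.

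No replicate pair of 98 was identical (0), and chi-square per degree of freedom was 2.84 to 128. Gene models, windows and promoters came from RefSeq TAIR10.1, which matched 74 of 74 genes and 28929 nuclear rows. Positions are in that build. Matches used BLAST 2.17.0, alignments Biopython 1.88, and intervals scipy 1.17.1. Tables were handled in pandas 2.3.3 and numpy 2.4.6 (Python 3.11.15) and drawn in matplotlib 3.10.9.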

Additional observations from a re-analysis of the deposited data

Results flagged for a closer look

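In 5 of 44 sets of libraries examined, 1 library stood far from the rest of its group, where chance flags about 1 in 20. The summed level of the 74 genes was 4.01 CPM in wt col-0 replicate 7, against 1.09 to 2.28 CPM in the other 7 wt col-0 libraries. Among libraries labelled ago9, replicate 2 was high for AT5G35480 at 2.01 CPM (0.380 to 0.552 CPM in the others) and for AT3G54730 at 1.18 CPM (0 to 0.184 CPM in the others). The AT3G54730 value came from a fractional count of 5.87, so it depends on how reads were divided. In ddm1, replicate 2 was high for AT2G05914 at 231 CPM (175 to 181 CPM in the others) and for AT2G19850 at 44.03 CPM (32.3 to 34.1 CPM in the others).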

How the results depend on the processing

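The number of genes found was 113 with a ddm1 limit of 1 CPM, 42 with a limit of 5 CPM, and 73 to 80 when a ddm1 replicate was left out, against 74. Calls against wild type are given for completeness, since the rule fixed a low control. With all 8 wt col-0 libraries as control, calls among the 74 were 7 in ago4, 4 in ago9, 7 in ago4ago9 and 2 in ago4ago5ago9, and the cause was not tested. With only the 2 groups compared in the fit, calls were 1 in ago4, 1 in ago4 against ago5 and 2 in ago4ago9 against ago5ago9, where 1, 1 and 2 of the 74 passed the filter. In ago5, ago9, ago5ago9 and ago4ago5ago9 against wt col-0, and in ago5ago9 against ago5, that fit tested 0 of the 74 and gave no value. DESeq2 called 0 in ago4 and 1 in ago4ago5ago9, and gave none of the 74 an adjusted p in ago9. Without a filter, 1 was called in ago9 and 1 in ago4ago5ago9, and with wt21 as control 1 in ago4ago5ago9. On the 24 argonaute libraries alone with the filter, 1 was called in ago4 against ago5. Leaving out a replicate gave 3 to 4 in ago4, 3 to 4 in ago4ago9, 0 to 1 in ago9, 0 to 1 in ago4ago5ago9, 2 in ago4 against ago5, 3 to 4 in ago4ago9 against ago5ago9 and 0 in the other comparisons. Of 195 recomputed values for called genes, 181 kept direction and call, 14 lost the call and 0 reversed. These values include calls against wt col-0, where the rule fixed a low control, so direction and call there were partly set in advance. The losses were in AT3G54730 for ago4 against wt col-0 (called in 7 of 14) and AT2G01422 for ago4ago9 against ago5ago9 (called in 8 of 15).

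Calls over all features moved more, and are given as reported with the range over alternatives: for ago4 39 calls (11 to 889), for ago4ago9 35 (26 to 273), for ago9 2 (1 to 430), for ago5 3 (3 to 16), for ago5ago9 6 (4 to 1131) and for ago4ago5ago9 2 (2 to 51), each highest with all 8 wt col-0 libraries. They were 23 in ago4 against ago5 (13 to 33), 121 in ago4ago9 against ago5ago9 (36 to 259), 13 in ago4ago9 against ago4 (9 to 26) and 21 in ago5ago9 against ago5 (2 to 102), each highest with the 24 argonaute libraries alone and no filter.

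Without its most abundant gene, the summed level was 8.09 CPM in ago4 and 12.6 CPM in ago4ago9 (AT3G29639), 1.78 CPM in ago4ago5ago9 (AT2G05914) and 1242 CPM in ddm1 (AT3G01345). The ddm1 sum was 1279 CPM on TMM-scaled totals and 1691 CPM without organelle genes and AT3G41768. Same-numbered libraries of different groups had deviations correlated at -0.189 to 0.272; 29 of 144 pairs were over 0.1, and the labels name nothing that numbers share, so the numbers were not taken to pair libraries. As a hint from the data, not the design, 21 of 36 libraries were closest to their own number. With the replicate block, calls were 4 in ago4, 3 in ago4ago9, 2 in ago4 against ago5, 4 in ago4ago9 against ago5ago9 and 0 elsewhere. Depth limits the argonaute values: for the 6 genes called, the highest count in an argonaute library was 72.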
